A study of Mus musculus with 6 samples.

Results

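The genes described here are 10 imprinted genes linked to growth, Dlk1, Meg3, Rian, Mirg, H19, Igf2, Cdkn1c, Mest, Peg3 and Rasgrf1, taken by symbol from the 17924 genes of the deposited expression table. All 10 were in the table and all 10 passed the filter on low values, as did 16252 genes in all. The list was drawn up in part because Dlk1 was higher and Rasgrf1 was lost in the cells without Nelfb. The values of these 2 genes are therefore given as a description with no test, and the other 8 genes carry the tests.

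The study examined how Nelfb, a subunit of the negative elongation factor that holds RNA polymerase II near gene starts, acts in the formation of dermal fat. RNA-seq was run on dermal fibroblasts taken from the back skin of neonatal (P0) C57BL/6J mice and kept for 14 days in adipocyte differentiation medium. The 3 CTL libraries came from mice with Pdgfra-Cre and either Nelfb fl/wt or Nelfb wt/wt, and the 3 Nelfb-/- libraries (labelled Nelfb KO) came from mice with Pdgfra-Cre and Nelfb fl/fl. Both groups thus carried the Cre transgene, the CTL group could hold 2 genotypes that the labels do not separate, and Cre driven by Pdgfra leaves Nelfb intact in cells of the culture outside that lineage.

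An imprinted gene is expressed mainly from the copy inherited from either the mother or the father, and imprinted genes tend to lie in clusters under a shared control region. In the Dlk1 to Dio3 cluster the paternal chromosome expresses the protein-coding genes Dlk1, Rtl1 and Dio3, and the maternal chromosome expresses the long non-coding RNAs Meg3, Rian and Mirg. Dlk1, also known as preadipocyte factor, is a transmembrane protein with EGF-like repeats that marks preadipocytes and is known to restrain their differentiation into fat cells. The reads carry no information here on the parental copy, so that the values are the total RNA of each gene.

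Sequence bears on these genes in 2 ways, since several of the non-coding RNAs are host transcripts of microRNAs and since some of the genes share or sit beside a compact promoter. Of the 10 genes, 6 held RefSeq microRNA hairpins on their own strand, 21 hairpins in all, with 14 in Mirg, 3 in Rian and 1 each in Meg3, H19, Igf2 and Mest. The 5p mature sequence of the first hairpin of each host is given here to mark which small RNAs these transcripts carry (RefSeq, GRCm38.p6), with the seed, bases 2 to 8, in capitals. The 6 seeds differed from each other. Mature microRNAs were not measured in these libraries.
Meg3, miR-770-5p: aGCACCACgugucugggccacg
Rian, miR-341-5p: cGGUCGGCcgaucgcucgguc
Mirg, miR-382-5p: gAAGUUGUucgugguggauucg
H19, miR-675-5p: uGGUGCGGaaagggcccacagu
Igf2, miR-483-5p: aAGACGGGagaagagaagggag
Mest, miR-335-5p: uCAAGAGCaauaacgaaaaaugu

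Of the 10 genes, 8 had an entry in the RefSeq promoter table (GRCm38.p6), and 3 stretches are shown because the results turn on these genes: Meg3, which did not pass the threshold where Rian and Mirg did, Rasgrf1, which was lost, and the pair of Peg3 and Usp29, which fell together. They are the 250 bases before the start of Meg3 (chr12:109540746-109540995, plus strand), the 250 bases before the start of Rasgrf1 (chr9:89909525-89909774, plus strand) and the 146 bases that separate the starts of Peg3 and Usp29, which are read away from each other (chr7:6730432-6730577, minus strand, in the direction of Peg3). The starts of Meg3 and Rasgrf1 are those of RefSeq here, which lie before the starts of the deposited table given with the values. The capitals mark matches on either strand to 4 motifs picked after the letters had been seen, the CCAAT box (CCAAT), the GC box (GGGCGG), the cAMP response element (TGACGTCA) and the TATA box (TATAAA).
Meg3: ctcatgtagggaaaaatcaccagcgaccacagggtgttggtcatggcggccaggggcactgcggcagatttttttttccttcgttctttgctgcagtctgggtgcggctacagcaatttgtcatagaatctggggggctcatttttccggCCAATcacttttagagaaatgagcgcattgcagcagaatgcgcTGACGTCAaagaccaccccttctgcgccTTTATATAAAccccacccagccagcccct
Rasgrf1: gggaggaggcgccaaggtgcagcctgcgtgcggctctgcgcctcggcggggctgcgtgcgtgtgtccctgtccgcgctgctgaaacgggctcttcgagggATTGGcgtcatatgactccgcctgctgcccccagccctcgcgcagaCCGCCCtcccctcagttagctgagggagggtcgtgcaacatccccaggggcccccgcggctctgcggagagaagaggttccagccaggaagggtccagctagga
Peg3 to Usp29: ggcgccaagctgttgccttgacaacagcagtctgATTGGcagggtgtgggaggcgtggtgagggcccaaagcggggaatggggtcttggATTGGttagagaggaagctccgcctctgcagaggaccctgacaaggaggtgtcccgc

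The Meg3 stretch held 1 CCAAT box, 1 cAMP response element and 2 TATA box matches that overlap on opposite strands. Among 32851 promoters, windows of the same length held these motifs in 33.9%, 1.55% and 12.4% of cases. The Rasgrf1 stretch held 1 CCAAT box and 1 GC box (32.7% of promoters) and 21 CpG dinucleotides, against a median of 6. The Peg3 to Usp29 stretch held 2 CCAAT boxes, and 24.0% of windows of 146 bases held at least 1. These matches are a description of the letters and no binding was measured.

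The depth on the listed genes was 17.2 to 29.4 M reads per library (M, 1000000), and values are in counts per M of those reads (CPM). Nelfb, the gene targeted by Cre, was at 17.3, 19.6 and 22.3 CPM in CTL and at 5.50, 3.90 and 5.55 CPM in Nelfb-/- cells, and was reduced in the fit across all genes (log2 fold change -1.99 ± 0.22, SE; limma adjusted p = 0.0050). The libraries labelled adipocytes expressed the adipocyte markers, with 24249 to 40967 summed CPM over 10 markers in CTL and 17363 to 25208 in Nelfb-/- cells. Over these 10 markers the median difference was -0.91 on the log2 scale. Of them 7 were lower, and 4 were lower and 2 higher at an unadjusted p under 0.05, of which Retn and Lep passed the threshold. CTL replicate 3 stood apart from the other CTL libraries, and Nelfb-/- replicate 1 from the other Nelfb-/- libraries, since the second principal component (27.7% of the variance) put CTL replicates 1 and 2 with Nelfb-/- replicate 1. The marker sum of fibroblast progenitors (10 genes in the table) followed the same split, with 3516, 3080 and 12018 CPM in CTL against 6100, 23417 and 25252 CPM in Nelfb-/- cells. So did the sum of 8 proliferation genes, at 75.1, 74.6 and 381 CPM in CTL against 81.4, 422 and 362 CPM in Nelfb-/- cells. Xist, the RNA of the inactive X chromosome, was at 771, 29.8 and 15.3 CPM in CTL and at 0.427 CPM or less in Nelfb-/- cells, and the labels do not give the sex of the animals. Its part in the values of the 10 genes was not tested.

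Of the 8 imprinted growth genes open to a test, 3 were increased, 1 was decreased and 4 did not pass the test in Nelfb-/- cells. By the group means, Rian was increased 4.24-fold, Mirg 4.03-fold and Cdkn1c 3.98-fold, and Peg3 was decreased 5.24-fold, while Meg3, H19, Igf2 and Mest did not pass the threshold of an adjusted p of at most 0.05 and at least a 2-fold change. The 4 of 8 that passed stand beside 11.2% of all genes tested (7.58% upward and 3.64% downward). In the limma fits without CTL replicate 1 or 2 or Nelfb-/- replicate 2 or 3, 0 of the 8 passed, with 4 at an unadjusted p under 0.05 in each. Without Nelfb-/- replicate 1, 2 passed, and without CTL replicate 3, 6 passed. The libraries of the groups did not overlap in 4 of these 8 genes, beside 38.1% of all genes tested. The Nelfb-/- libraries were the higher ones in 3 (22.0% of all genes) and the lower ones in 1 (16.1%). The median log2 fold change over the 8 genes was 1.33, and that over all genes was 0.07. Dlk1 and Rasgrf1, whose separation the choice fixed, are not in these counts.

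**Figure D1:**
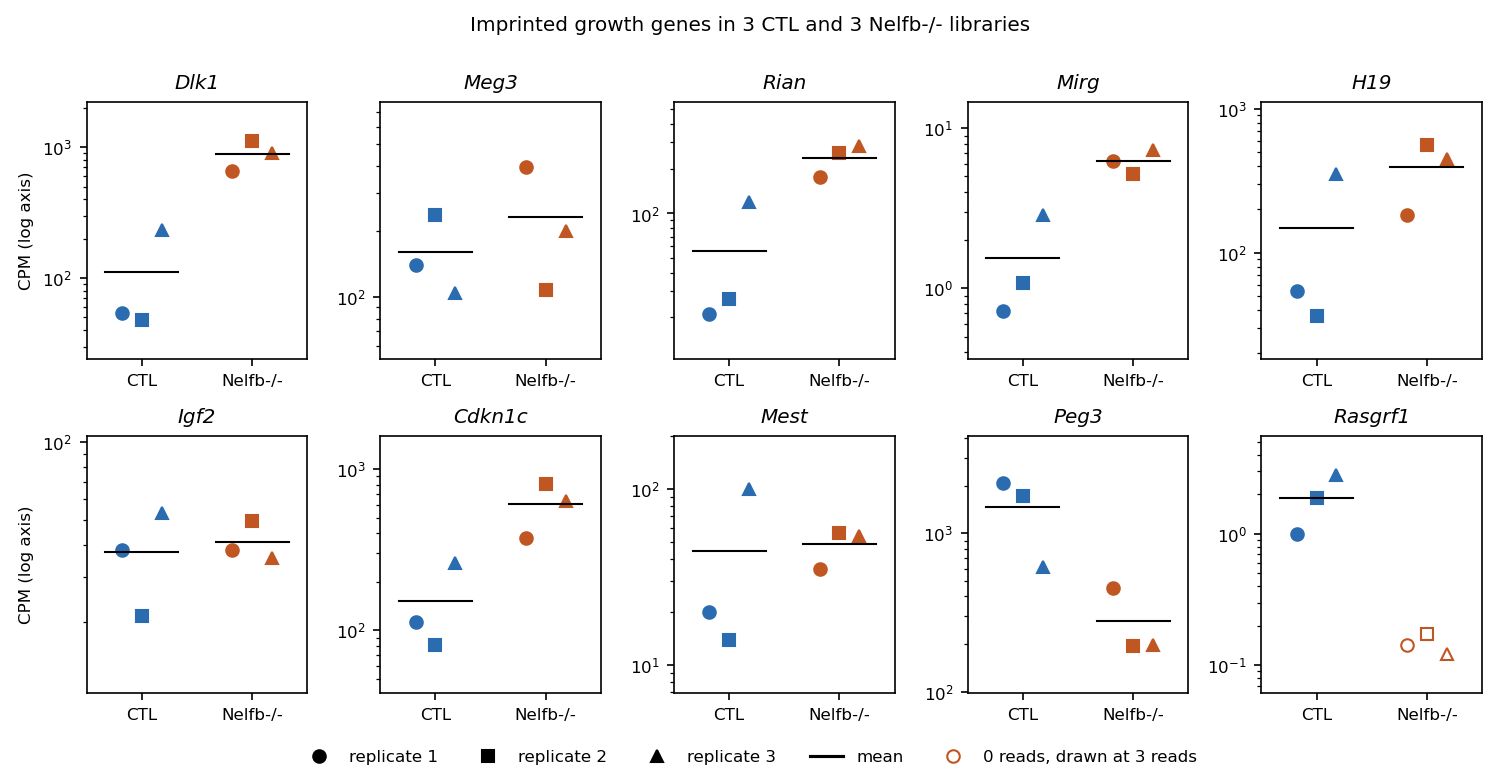
Values of the 10 imprinted growth genes in each library, in CPM on a log axis with its own range in each panel, with CTL libraries in blue, Nelfb-/- libraries in orange, symbols for the replicates and a line for the mean. The groups are apart in Dlk1, Rian, Mirg, Cdkn1c, Peg3 and Rasgrf1, CTL replicate 3 lies nearest to the Nelfb-/- libraries in 5 of these 6 genes, and the open symbols of Rasgrf1 are libraries with 0 reads drawn at the level of 3 reads.

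Dlk1 (ENSMUSG00000040856, chr12:109452823-109463336) was at 53.9, 48.0 and 232 CPM in the CTL libraries and at 661, 1115 and 898 CPM in the Nelfb-/- libraries. All 3 Nelfb-/- libraries were above all 3 CTL libraries, and CTL replicate 3 was 4.56 times the mean of the other CTL libraries. The means were 111 ± 105 (SD, n = 3) and 891 ± 227 CPM (SD, n = 3), an 8.0-fold difference. The difference was 3.37 on the log2 scale (SE 0.61) and 4.10 without CTL replicate 3. Dlk1 was also high per length, at 158 CPM per kb of exon in Nelfb-/- cells against 19.7 in CTL. The gene was chosen for this rise, so that no p is given.

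Of the 3 non-coding RNAs downstream of Dlk1, Rian and Mirg passed the threshold and Meg3 did not. Meg3 (ENSMUSG00000021268, chr12:109541001-109571726), the first of these RNAs, was at 141, 238 and 104 CPM in CTL and at 392, 108 and 201 CPM in Nelfb-/- cells. The groups overlapped, with the highest value in Nelfb-/- replicate 1 and the lowest in CTL replicate 3. Meg3 differed by 0.43 ± 0.51 on the log2 scale (SE; limma adjusted p = 0.60). Without Nelfb-/- replicate 1 it was -0.04.

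Rian (ENSMUSG00000097451, chr12:109603808-109661716), a host of box C/D small nucleolar RNAs as well as microRNAs, was at 21.0, 26.7 and 120 CPM in CTL and at 175, 253 and 282 CPM in Nelfb-/- cells. The groups did not overlap, and CTL replicate 3 was 5.03 times the mean of the other CTL libraries. Rian was increased (log2 fold change 2.51 ± 0.64, SE; limma adjusted p = 0.045), but single libraries decided the call. It was lost without any 1 of CTL replicates 1 and 2 and Nelfb-/- replicates 1, 2 and 3, with adjusted p up to 0.15, and the log2 fold change without CTL replicate 3 was 3.29 (adjusted p = 0.0042). It was also lost in a fit with no abundance trend in the variance (adjusted p = 0.063).

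Mirg (ENSMUSG00000097391, chr12:109729764-109749460), which holds most of the microRNA hairpins counted above, was weakly expressed. It was at 0.722, 1.07 and 2.86 CPM in CTL, or 16, 23 and 84 reads, and at 6.21, 5.18 and 7.34 CPM in Nelfb-/- cells, or 131, 89 and 180 reads. All Nelfb-/- libraries were above all CTL libraries. Mirg was increased (log2 fold change 2.20 ± 0.51, SE; limma adjusted p = 0.033), and this call was lost in the same 5 of 6 cases as that of Rian, with adjusted p up to 0.13.

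The ratio of Rian to Meg3 sets these neighbours against each other within each library. It was 0.149, 0.112 and 1.15 in CTL and 0.447, 2.34 and 1.41 in Nelfb-/- cells. CTL replicate 3 thus had a higher ratio than Nelfb-/- replicate 1. The mean difference in log2 ratio was 2.08 (exact permutation test, two-sided, p = 0.2, 0.24 after adjustment over 6 ratios, where 0.1 is the smallest p that 3 against 3 allow). Mirg to Rian was steadier, at 0.0344, 0.0402 and 0.0238 in CTL and 0.0354, 0.0205 and 0.0260 in Nelfb-/- cells (difference in log2 ratio -0.27, exact permutation p = 0.5). Reads of Meg3 and those of its antisense neighbour Gm26906, which shares 6.79% of the exon bases of Meg3, cannot be told apart if the counting ignored strand.

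The protein-coding neighbours in the cluster were also higher in Nelfb-/- cells. Rtl1, a retrotransposon-derived gene needed in the placenta and muscle, lies between Meg3 and Rian on the opposite strand and was at 0.316, 0.093 and 1.80 CPM in CTL and at 4.13, 6.23 and 5.10 CPM in Nelfb-/- cells (log2 fold change 3.51 ± 0.90, SE; limma adjusted p = 0.045). Its call remained in 1 of the 6 fits that each left out a library, that without CTL replicate 3. In the others the limma adjusted p rose up to 0.14. Mir127, Mir433 and other microRNA genes lie on the opposite strand within exons of Rtl1. If the counting ignored strand, reads of an antisense transcript cannot be told from those of Rtl1. Dio3, the deiodinase that inactivates thyroid hormone at the far end of the cluster, was at 0.271, 0.093 and 0.136 CPM in CTL, or 6, 2 and 4 reads, and at 1.66, 8.50 and 3.55 CPM in Nelfb-/- cells (log2 fold change 4.23 ± 0.66, SE; limma adjusted p = 0.012). That call was lost without Nelfb-/- replicate 3 (adjusted p = 0.062).

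Begain, which lies 385 kb before Dlk1, had the smallest SE of the called genes at this locus. It was at 3.25, 2.61 and 2.58 CPM in CTL and at 30.3, 18 and 18.3 CPM in Nelfb-/- cells (log2 fold change 2.92 ± 0.26, SE; limma adjusted p = 0.0037), was called in all 6 fits that each left out a library, and had no raised value in CTL replicate 3. The next genes outward, Wdr25 and Wars before Begain and the pseudogenes Gm6988 and Gm9063 after Dio3, did not pass the threshold, with log2 fold changes between -0.61 and 0.29.

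**Figure D2:**
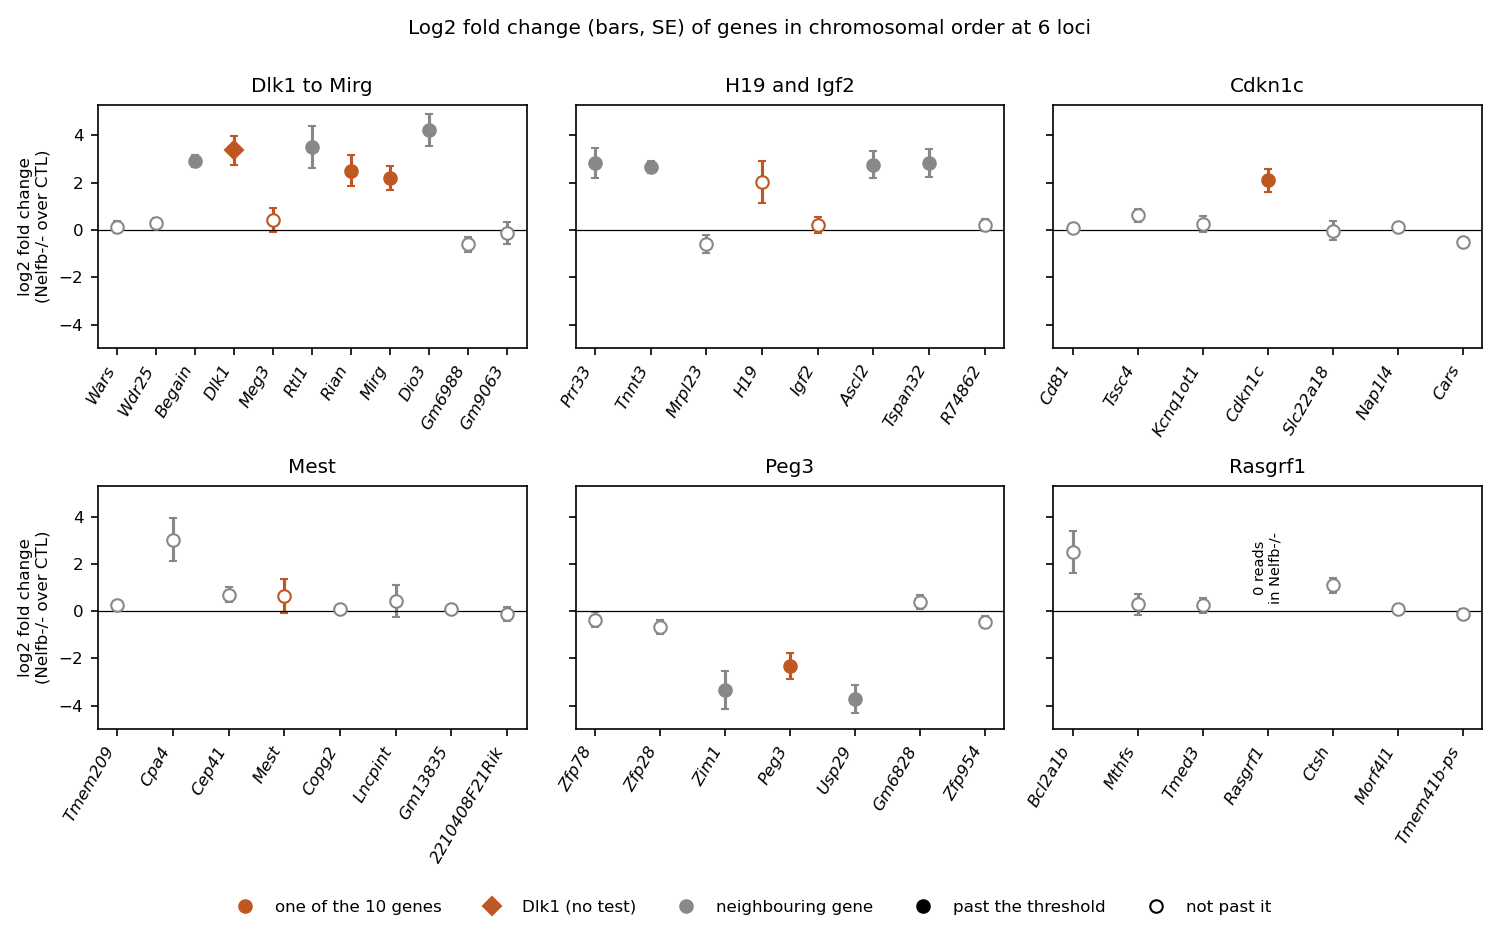
Log2 fold change of Nelfb-/- over CTL with its SE for the imprinted growth genes (orange) and their nearest tested neighbours (grey), in chromosomal order at 6 loci, with filled symbols for genes past the threshold and a diamond for Dlk1, for which no test is given. Begain, Rtl1 and Dio3 lie between 2.92 and 4.23 beside Meg3 at 0.43. Cdkn1c is the only gene past the threshold in its panel, while Ascl2 and Tspan32, farther out and also past it, are drawn with H19 and Igf2. Zim1 and Usp29 lie below 0 on both sides of Peg3. Rasgrf1 has no symbol because it had 0 reads in Nelfb-/- cells.

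At the second imprinted cluster, H19 and Igf2 share enhancers, and H19 is expressed from the maternal and Igf2 from the paternal copy. H19 (ENSMUSG00000000031, chr7:142575529-142578143), an abundant non-coding RNA of fetal tissue, was at 54.2, 36.3 and 353 CPM in CTL and at 181, 562 and 445 CPM in Nelfb-/- cells. The groups overlapped because CTL replicate 3, 7.81 times the mean of the other CTL libraries, exceeded Nelfb-/- replicate 1. H19 differed by 2.01 ± 0.89 on the log2 scale (SE; limma adjusted p = 0.17). With CTL replicate 3 left out, the difference was 3.01 and passed the threshold (adjusted p = 0.016).

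Igf2 (ENSMUSG00000048583, chr7:142650766-142666816), a fetal growth factor that signals through the type 1 IGF receptor, was at 38.2, 21.1 and 53.0 CPM in CTL and at 38.0, 49.2 and 35.4 CPM in Nelfb-/- cells. The Nelfb-/- values lay within the range of the CTL values. Igf2 differed by 0.21 ± 0.34 on the log2 scale (SE; limma adjusted p = 0.71) and by -0.15 with CTL replicate 2 left out. Of the exon bases of Igf2, 62.8% are shared with the readthrough gene model Gm49394, so that the count of Igf2 depends on how shared reads were assigned. The ratio of H19 to Igf2 was 1.42, 1.72 and 6.66 in CTL and 4.77, 11.4 and 12.6 in Nelfb-/- cells (difference in log2 ratio 1.80, exact permutation p = 0.2), with CTL replicate 3 again above Nelfb-/- replicate 1.

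Of the 3 nearest tested genes on each side of H19 and Igf2, 4 were increased. Ascl2, an imprinted transcription factor, had 5, 2 and 12 reads in CTL and 23, 35 and 54 reads in Nelfb-/- cells (log2 fold change 2.77 ± 0.56, SE; limma adjusted p = 0.023). The call of Ascl2 needed CTL replicates 1 and 2 and Nelfb-/- replicates 2 and 3, since adjusted p rose up to 0.11 with any of them left out. Tnnt3, a troponin of fast skeletal muscle, was increased by 2.67 (limma adjusted p = 0.0042), beside Prr33 by 2.83 (adjusted p = 0.032) and Tspan32 by 2.82 (adjusted p = 0.025) on the log2 scale. Tnnt3 is also 1 of the skeletal muscle markers, of which 8 of 9 tested were increased, with a summed level of 9.94 to 13.2 CPM in CTL against 54.0 to 101 CPM in Nelfb-/- cells. Pax7 and Myf5 were not in the table. The part of muscle cells in the values of H19, Dlk1 or their neighbours was not tested.

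Cdkn1c (ENSMUSG00000037664, chr7:143458339-143461050) encodes p57, an inhibitor of cyclin-dependent kinases that is expressed from the maternal copy. It was at 113, 81.1 and 262 CPM in CTL and at 374, 803 and 638 CPM in Nelfb-/- cells, with no overlap and with CTL replicate 3 highest among the CTL libraries. Cdkn1c was increased (log2 fold change 2.10 ± 0.48, SE; limma adjusted p = 0.033). Cdkn1c did not pass when CTL replicate 1 or 2 or Nelfb-/- replicate 2 or 3 was left out, with adjusted p up to 0.12, and the log2 fold change without CTL replicate 3 was 2.59. Per length it was the most abundant of the 10 genes in Nelfb-/- cells, at 297 CPM per kb against 74.6 in CTL.

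None of the 3 nearest tested genes on each side of Cdkn1c passed the threshold. Farther out, Ascl2 and Tspan32, given above beside H19 and Igf2, were increased by 2.77 and 2.82 on the log2 scale. Kcnq1ot1, the long non-coding RNA whose paternal expression is tied to silencing in this cluster, was at 16.1, 13.1 and 6.94 CPM in CTL and at 17.3, 11.8 and 12.4 CPM in Nelfb-/- cells (log2 fold change 0.26 ± 0.35, SE; limma adjusted p = 0.65). Slc22a18, Nap1l4, Tssc4, Cd81 and Cars had log2 fold changes between -0.52 and 0.62, and Osbpl5 did not pass either. The ratio of Cdkn1c to Kcnq1ot1 was 7.01, 6.19 and 37.8 in CTL and 21.6, 68.3 and 51.6 in Nelfb-/- cells (difference in log2 ratio 1.85, exact permutation p = 0.2), where CTL replicate 3 lay above Nelfb-/- replicate 1. Gm44732, an antisense gene that covers 30.7% of the exon bases of Cdkn1c, was at 0.0044 CPM or less in CTL and at 0.792, 0.544 and 0.836 CPM in Nelfb-/- cells, and without strand its reads cannot be told from those of Cdkn1c.

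Mest (ENSMUSG00000051855, chr6:30723547-30748465), a hydrolase expressed from the paternal copy whose level is tied to the growth of fat tissue, was at 20.1, 13.8 and 100 CPM in CTL and at 35.2, 56.4 and 54.2 CPM in Nelfb-/- cells. The groups overlapped through CTL replicate 3, which was 5.91 times the mean of the other CTL libraries and the highest of all 6. Mest differed by 0.65 ± 0.71 on the log2 scale (SE; limma adjusted p = 0.57), and with CTL replicate 3 left out by 1.51, which passed the threshold (adjusted p = 0.020). Copg2, which runs into Mest from the opposite strand and shares 23.1% of its exon bases, was between 35.5 and 52.1 CPM in all libraries (log2 fold change 0.08 ± 0.18, SE; limma adjusted p = 0.80). Cep41, Cpa4, Tmem209, Lncpint, Gm13835 and 2210408F21Rik did not pass the threshold either, with log2 fold changes between -0.14 and 3.02, the highest that of Cpa4 (limma adjusted p = 0.072), whose Nelfb-/- values were all above its CTL values.

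Peg3 (ENSMUSG00000002265, chr7:6703892-6730431), a zinc finger protein expressed from the paternal copy, went the other way. It was at 2066, 1734 and 616 CPM in CTL and at 451, 195 and 197 CPM in Nelfb-/- cells, so that all Nelfb-/- libraries lay below all CTL libraries and CTL replicate 3 was the lowest of its group. Peg3 was decreased (log2 fold change -2.33 ± 0.55, SE; limma adjusted p = 0.035), a 5.24-fold difference of the means. Peg3 likewise did not pass when CTL replicate 1 or 2 or Nelfb-/- replicate 2 or 3 was left out, with adjusted p up to 0.13, and the log2 fold change without CTL replicate 3 was -2.87. Per length, Peg3 was the most abundant of the 10 genes in CTL, at 110 CPM per kb, and stood at 21.1 CPM per kb in Nelfb-/- cells.

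The genes on each side of Peg3 fell with it. Usp29, a ubiquitin protease gene that starts 146 bases from Peg3 on the other strand, across the stretch printed above, was at 25.9, 22.3 and 7.38 CPM in CTL and at 2.18, 0.99 and 0.775 CPM in Nelfb-/- cells (log2 fold change -3.72 ± 0.59, SE; limma adjusted p = 0.012). With CTL replicate 2 or Nelfb-/- replicate 3 left out, Usp29 did not pass (adjusted p up to 0.059). Zim1, a zinc finger gene 7.44 kb beyond the end of Peg3 that is expressed from the maternal copy, was at 339, 280 and 59.4 CPM in CTL and at 44.7, 10.5 and 11.8 CPM in Nelfb-/- cells (log2 fold change -3.33 ± 0.82, SE; limma adjusted p = 0.040). Zim1 failed to pass without any 1 of the same 4 libraries as Peg3 (adjusted p up to 0.14). Outside these genes, Zfp28, Zfp78, Gm6828 and Zfp954 had log2 fold changes between -0.67 and 0.40 and did not pass the threshold.

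Within this locus the ratio of Usp29 to Peg3 was nearly the same in all CTL libraries, at 0.0125, 0.0128 and 0.0120, although Peg3 itself was 3.09 times lower in CTL replicate 3 than in the mean of the others. In Nelfb-/- cells the ratio was 0.0048, 0.0051 and 0.0039, below every CTL library (difference in log2 ratio -1.44, exact permutation test, two-sided, p = 0.1, the smallest that 3 against 3 allow, and 0.24 after adjustment over 6 ratios). The ratio of Zim1 to Peg3 was 0.164, 0.162 and 0.0964 in CTL and 0.0992, 0.0537 and 0.0597 in Nelfb-/- cells and overlapped (difference in log2 ratio -1.0, exact permutation p = 0.2). Zim3, antisense to Usp29, covers 14.3% of its exon bases.

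**Figure D3:**
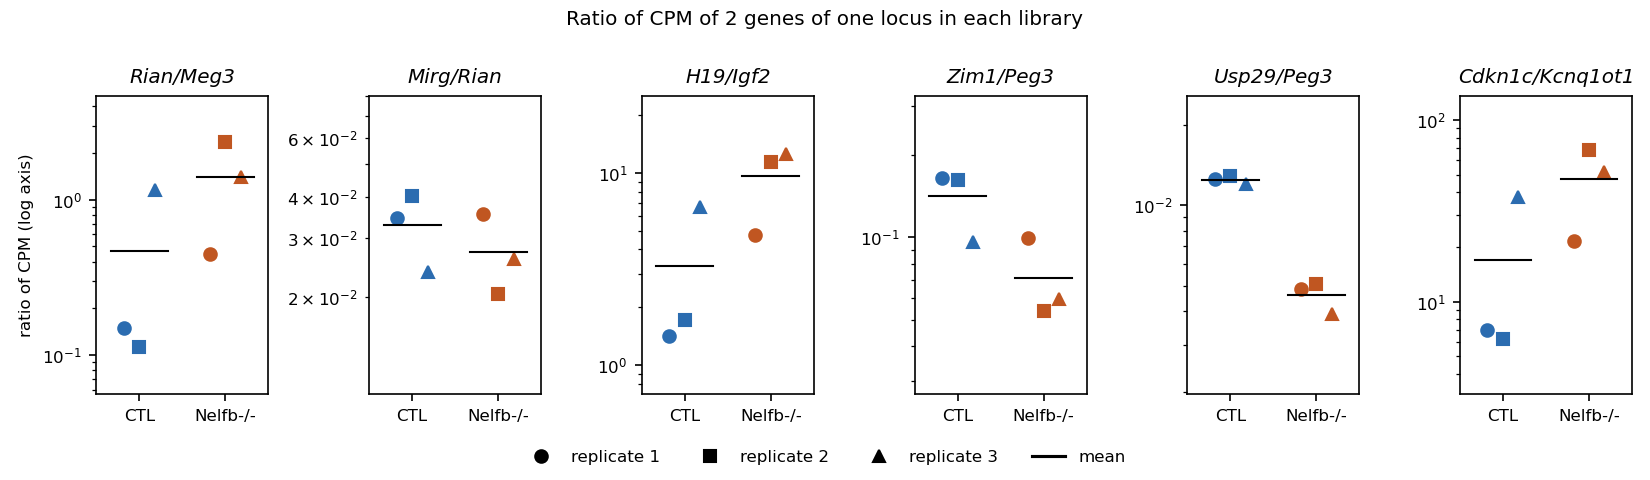
Ratio of the CPM of 2 genes of the same locus in each library on a log axis, with CTL libraries in blue, Nelfb-/- libraries in orange, symbols for the replicates and a line for the mean. The ratio of Usp29 to Peg3 is the only 1 of the 6 in which the groups are apart, at 0.0120 to 0.0128 in CTL and 0.0039 to 0.0051 in Nelfb-/- cells.

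Rasgrf1 (ENSMUSG00000032356, chr9:89909908-90026977), a guanine nucleotide exchange factor that activates Ras and is expressed from the paternal copy, was at 0.992, 1.87 and 2.79 CPM in CTL, or 22, 40 and 82 reads. It had 0 reads in all 3 Nelfb-/- libraries. CTL replicate 3, which was nearest to the Nelfb-/- libraries in most of the genes above, was here the farthest from them. In all, 144 reads were counted among 73.0 M in CTL and 0 among 62.8 M in Nelfb-/- cells. With 3 reads per library taken as the upper limit that a count of 0 allows, equal to 0.122 to 0.175 CPM, Rasgrf1 was at least 12.9-fold lower in Nelfb-/- cells. This limit covers counting error only, and no p is given because the gene was chosen for its loss.

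None of the 3 nearest tested genes on each side of Rasgrf1 passed the threshold. Ctsh, 27.2 kb beyond its end, was at 34.5, 33.4 and 71.7 CPM in CTL and at 78.9, 108 and 94.5 CPM in Nelfb-/- cells (log2 fold change 1.09 ± 0.32, SE; limma adjusted p = 0.064). Tmed3, Mthfs, Bcl2a1b, Morf4l1 and Tmem41b-ps had log2 fold changes between -0.13 and 2.49. Among the other exchange factors for Ras and the Ras genes, 1 of 10 tested passed the threshold, Rasgrp3, which was at 1.35, 1.96 and 1.12 CPM in CTL and at 6.12, 4.37 and 4.49 CPM in Nelfb-/- cells (log2 fold change 1.75 ± 0.31, SE; limma adjusted p = 0.016). Rasgrp3 was called in 3 of the 6 fits that each left out a library. The 1 of 10 stands beside 11.2% of all genes tested. Of these 10 genes, 3 were higher and 1 was lower at an unadjusted limma p under 0.05.

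Per kb of exon, the 10 genes spanned a wide range in CTL, from Peg3 at 110 CPM per kb through Cdkn1c at 74.6, H19 at 60.1, Dlk1 at 19.7, Mest at 11.3, Meg3 at 8.89, Igf2 at 6.54 and Rian at 3.06 to Mirg at 0.213 and Rasgrf1 at 0.170. In Nelfb-/- cells the order of the mean levels was Cdkn1c at 297 CPM per kb, H19 at 161, Dlk1 at 158, Peg3 at 21.1, Rian at 13, Meg3 at 12.9, Mest at 12.3, Igf2 at 7.14 and Mirg at 0.856, with Rasgrf1 at 0. Peg3 thus passed from the first place to the fourth. Part of the CTL order rested on replicate 3. Over CTL replicates 1 and 2 alone, Peg3 at 143 CPM per kb, Cdkn1c at 47.6 and H19 at 18.4 kept the first places. Below them, Meg3 at 10.5 stood above Dlk1 at 9.0, Igf2 at 5.18 above Mest at 4.29, and Rasgrf1 at 0.129 above Mirg at 0.123.

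Beyond these 10 genes, 68 further imprinted genes were listed, of which 53 were in the table and 52 were tested. Of these 52, 10 were increased and 2 were decreased (23.1%, beside 11.2% of all genes), and their median log2 fold change was 0.18. Of the 12, 6 lie in the clusters described above (Begain, Rtl1, Dio3, Ascl2, Zim1 and Usp29). Dio3, Ascl2 and Ddc averaged 0.167, 0.242 and 0.299 CPM in CTL, under the 0.448 CPM of the filter. These genes passed the filter only through their Nelfb-/- values. Outside the clusters, 6 of 39 tested were increased and 0 were decreased in the limma fit, beside 7.58% and 3.64% of all genes. Of the 39, 13 were higher and 4 were lower at an unadjusted p under 0.05.

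Peg10, a retrotransposon-derived gene expressed from the paternal copy, also had its highest CTL value in replicate 3, at 104, 102 and 518 CPM in CTL against 1132, 1728 and 1372 CPM in Nelfb-/- cells (log2 fold change 2.98 ± 0.64, SE; limma adjusted p = 0.027). It was called in 2 of the 6 fits that each left out a library, and so were Peg12 (log2 fold change 1.58, adjusted p = 0.037) and Ddc (log2 fold change 2.33, adjusted p = 0.032), which makes dopamine and serotonin. Plagl1, a zinc finger factor known as a regulator of other imprinted genes, was at 69.4, 64.8 and 68.6 CPM in CTL and at 168, 191 and 214 CPM in Nelfb-/- cells (log2 fold change 1.49 ± 0.14, SE; limma adjusted p = 0.0039). Gatm, the first enzyme of creatine synthesis, was increased by 3.18 (adjusted p = 0.0042) and, like Plagl1, was called without any 1 library. Adam23, an adhesion protein, was increased by 1.13 (adjusted p = 0.011) and was called in 4 of those 6 fits.

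**Figure D4:**
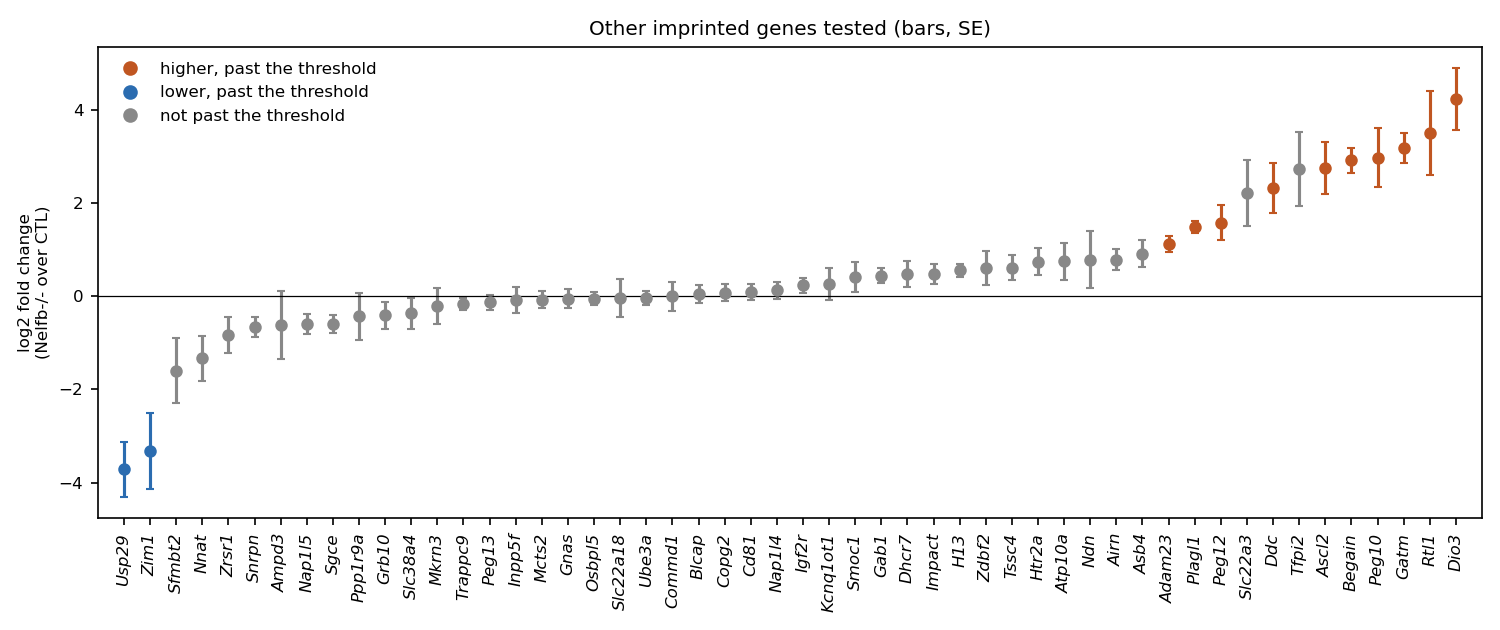
Log2 fold change of Nelfb-/- over CTL with its SE for the 52 other imprinted genes tested, ordered by value, with genes past the threshold upward in orange and downward in blue. Of these genes, 40 did not pass the threshold, 10 are increased with Dio3 the highest at 4.23, and Usp29 and Zim1 are the 2 decreased genes.

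The pathways in which these genes act were measured through further lists. Their counts, and those of the cell type lists below, stand beside 11.2% of all genes called (7.58% increased and 3.64% decreased). A single call in a list of 9 to 15 genes is near that share. Of 9 genes linked to Dlk1 action, Notch receptors and targets among them, 1 was increased, Fn1 or fibronectin, a matrix protein (log2 fold change 1.41 ± 0.34, SE; limma adjusted p = 0.038), and 0 were decreased, with 2 higher and 0 lower at an unadjusted p under 0.05. Of 15 tested genes of the IGF axis, 2 were increased, the growth factor Igf1 (2.01, adjusted p = 0.0081) and the binding protein Igfbp3 (1.11, adjusted p = 0.037). In the same list 2 were decreased, the receptor adaptor Irs1 (-1.03, adjusted p = 0.038) and the Igf2 mRNA-binding protein Igf2bp1 (-1.10, adjusted p = 0.013). At an unadjusted limma p under 0.05, 3 genes of this list were higher and 4 were lower. The call of Igfbp3 was lost whichever library was left out, while that of Igf1 remained in all 6 such fits.

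Of 12 genes that act with Cdkn1c in the cell cycle, 0 were increased in the limma fit and 1 was decreased, with 1 higher and 2 lower at an unadjusted p under 0.05. The decreased gene was the cyclin Ccnd2 (log2 fold change -1.14 ± 0.24, SE; limma adjusted p = 0.025). Cdkn1b, which encodes the related inhibitor p27 and was named after its values were seen, differed by -0.84 ± 0.13 on the log2 scale (SE; limma adjusted p = 0.012), short of the 2-fold limit. Of 15 factors that maintain imprints, 1 was increased, the maintenance methyltransferase Dnmt1, at 19.6, 15.7 and 33.6 CPM in CTL against 42.5, 79.6 and 72.1 CPM in Nelfb-/- cells (log2 fold change 1.52 ± 0.35, SE; limma adjusted p = 0.034), and 0 were decreased, with 2 higher and 0 lower at an unadjusted p under 0.05. The calls of Fn1, Irs1 and Dnmt1 each remained in 2 of the 6 fits that left out a library, that of Igf2bp1 in 3 and that of Ccnd2 in 1.

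The 5 tested genes with the highest Pearson correlation with Dlk1 over the 6 log2 values were Rap2a (r = 0.999), Mcfd2, Wasf3, Pea15a and Tpm3 (0.998 each). Rap2a was at 20.5, 18.6 and 37.0 CPM in CTL and at 54.3, 70.1 and 67.0 CPM in Nelfb-/- cells, a smaller change than that of Dlk1. For Rasgrf1 they were Pbx2 (r = 0.998), Gm10335, Bri3bp, Acer2 and Mrpl32 (0.997, 0.997, 0.996 and 0.995). Acer2 was at 130, 162 and 168 CPM in CTL and at 46.1, 43.4 and 39.7 CPM in Nelfb-/- cells. These values describe 6 libraries in 2 groups and were picked from all genes tested.

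Marker lists of other cell types also differed between the groups in part. In bulk RNA, fewer cells of a type and less RNA per cell cannot be told apart. Of 8 macrophage markers 7 were increased, with summed levels of 724, 366 and 178 CPM in CTL against 5772, 1827 and 3168 CPM in Nelfb-/- cells. Within the groups this sum was lowest in CTL replicate 3 and highest in Nelfb-/- replicate 1, while Dlk1, Rian, H19 and Cdkn1c were highest in the former and lowest in the latter. The Schwann cell list (7 of 8 markers in the table) stood at 62.7 to 76.6 CPM in CTL against 177 to 221 CPM in Nelfb-/- cells, with 5 markers increased and 1, Mbp, decreased. The melanocyte list (6 markers) stood at 48.6 to 73.7 CPM in CTL against 51.9 to 168 CPM in Nelfb-/- cells, with 5 increased, and Tyr, Tyrp1 and Mlana at 3 reads or fewer in every CTL library.

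CTL replicate 3, with raised Dlk1, Rian, H19, Cdkn1c and Mest and lowered Peg3 among the CTL libraries, had the highest progenitor and proliferation sums of that group and its lowest adipocyte and macrophage sums. Of the progenitor list, 1 of 9 tested genes was increased, while 5 were higher and 0 lower at an unadjusted p under 0.05, and the median log2 fold change was 1.23. Of the proliferation list 0 of 8 passed in the limma fit, also at an unadjusted p under 0.05. The endothelial list stood at 7.04 to 11.8 CPM in CTL against 8.44 to 22.0 CPM in Nelfb-/- cells, the keratinocyte list at 2.62 to 3.17 and 6.83 to 14.4 CPM, and the mural list at 141 to 244 and 116 to 228 CPM. The part of these cells in the values of the 10 genes was not tested. A fit without CTL replicate 3 and Nelfb-/- replicate 1 was chosen after seeing the data. These libraries lay nearest to the other group in Dlk1, Rian, H19, Cdkn1c and Peg3, so that leaving them out widens the difference of these genes by construction, and for Mest it removes the highest CTL value and the lowest Nelfb-/- value. The log2 fold changes were then 4.30 for Dlk1, 3.50 for Rian, 2.75 for Mirg, 3.49 for H19, 2.90 for Cdkn1c, 1.73 for Mest and -3.27 for Peg3.

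**Figure D5:**
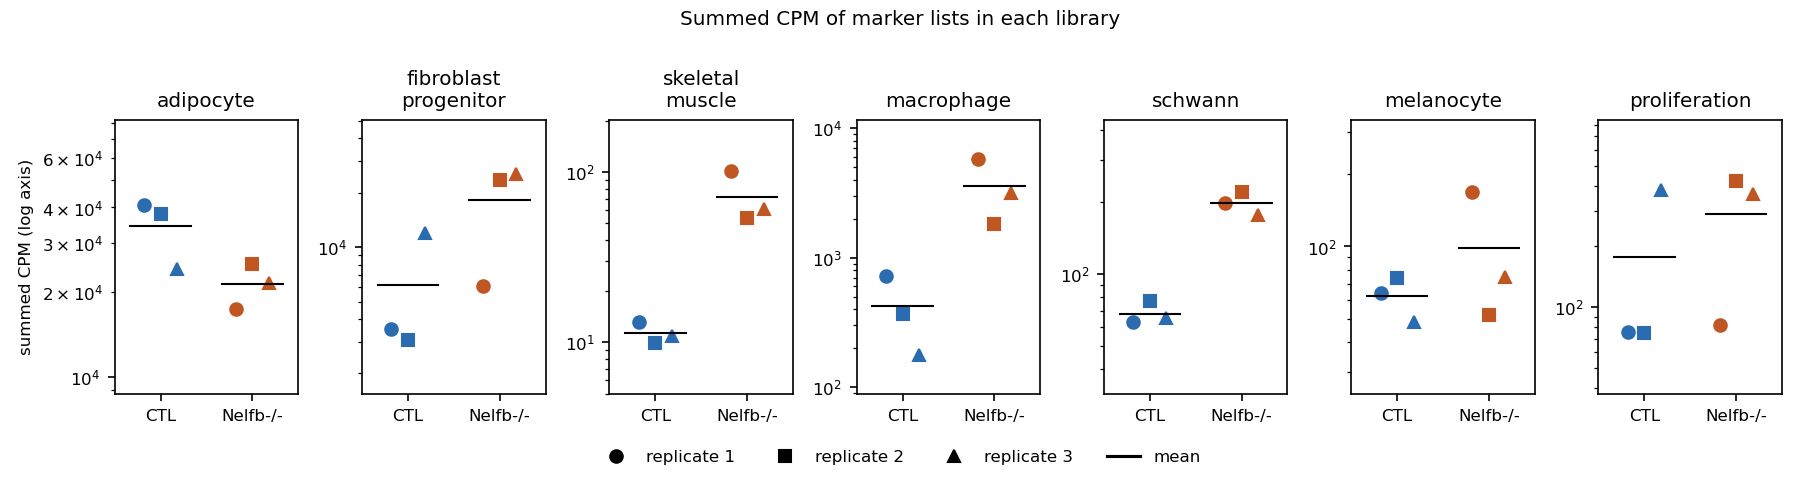
Summed CPM of 7 marker lists in each library on a log axis with its own range in each panel, with CTL libraries in blue, Nelfb-/- libraries in orange, symbols for the replicates and a line for the mean. The fibroblast progenitor and proliferation sums of CTL replicate 3 lie above those of Nelfb-/- replicate 1, while the skeletal muscle, macrophage and Schwann sums are apart between the groups.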

How the data were processed

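RNA-seq values of 3 CTL and 3 Nelfb-/- libraries were read from 1 table deposited by the authors. The deposited values were CPM, since each column summed to 1000000 once the constant offset of 0.0001 was subtracted. The submitters' processing notes name mm10, STAR 2.7 and Partek 9.0.20.0202, while the methods of the study name DESeq2 for alignment. The strand setting of the counting is not given in the sources used here. Every gene reached 10 reads in at least 1 library. The smallest step of each column gave the worth of 1 read and thereby the depth (17.2 to 29.4 M), and 3 reads equalled 0.102 to 0.175 CPM. Only 72.2% to 74.7% of values up to 20 reads lay within 0.05 of a whole read, so that no count test was run.

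CPM were scaled to the depths' geometric mean (22.3 M), and log2(value + 1 read) was tested with limma (3.58.1, R 4.3.3) with an abundance trend, for genes averaging 10 reads (0.448 CPM) or more. Fold changes on this scale understate the change of low genes. The average for this filter ran over both groups. Genes such as Dio3, Ascl2, Prr33, Tspan32 and Ddc passed it only through their Nelfb-/- values. The Benjamini-Hochberg adjustment covered all 16252 genes. A call needed a 2-fold change with adjusted p no higher than 0.05, and there were 1824 calls. Ratios were compared with exact permutation tests in scipy (1.17.1). Replicates are biological per the study, and the p-values measure the spread between these libraries.

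The 10 genes and all gene lists were chosen with earlier results of these data known. Named genes were Nelfb, the 10 genes, measured genes of the same clusters, up to 6 called genes of each list by size of change, the 3 nearest tested genes on each side of a locus, and the 5 genes most alike Dlk1 and Rasgrf1. Xist, Gm44732, single marker genes and overlapping gene models were named after the values were seen. Gene IDs and exon lengths are from GENCODE vM21, and positions are those of the deposited table on mm10. Alternatives were other pseudocounts (0.5 and 5 reads), filters and scaling, a replicate block, no abundance trend and leaving out each library. Leaving out CTL replicate 3 and Nelfb-/- replicate 1 together was chosen after seeing the data.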

Additional observations from a re-analysis of the deposited data

How the results depend on the processing

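Under the other pseudocounts, filters and scaling, the counts of calls stayed within 1.5 times the reported ones (1824 genes, 4 of the 8 imprinted growth genes open to a test and 12 other imprinted genes), and 3 of the 8 were called with no abundance trend. Leaving out 1 library gave 426 to 2479 genes, 0 to 6 of the 8 genes and 4 to 15 other imprinted genes. The lowest count of genes came without Nelfb-/- replicate 3 and the highest without CTL replicate 3. The 0 of 8 came without CTL replicate 1 or 2 or Nelfb-/- replicate 2 or 3 (limma, 4 at an unadjusted p under 0.05 in each). Leaving out CTL replicate 3 and Nelfb-/- replicate 1 together gave 4383 genes, 6 of the 8 genes and 21 other imprinted genes. The direction turned for Meg3 without Nelfb-/- replicate 1 (-0.04) and without that library and CTL replicate 3 (-0.31), and for Igf2 without CTL replicate 2 (-0.15), and the cause was not tested. With libraries left out, Meg3 ranged from -0.31 to 0.89 and Igf2 from -0.15 to 0.56 on the log2 scale. Of 112 values of the 8 genes open to a test under 14 alternatives, 86 kept their direction and their side of the threshold, 19 lost a call, 4 gained 1 and 3 turned in direction.

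Labels give both groups replicate numbers 1 to 3. Deviations of same-numbered libraries from their group means correlated at 0.52, -0.39 and 0.52, so that the numbers were not taken as pairing. A fit with the replicate block called 2175 genes, 4 of the 8 genes and 14 other imprinted genes.

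The depth sets the limit for Rasgrf1, Mirg, Rtl1, Dio3 and Ascl2, which had few reads in CTL, and with 3 libraries a group 1 library can decide a call.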
